A study of Mus musculus with 12 samples.

Results

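Cardiac muscle genes were followed in lung tissue of B6C3F1 mice, in which a sleeve of heart-type muscle runs from the left atrium along the pulmonary veins. The set held 40 genes of the sarcomere, calcium handling, atrial identity, conduction, energy supply and cardiac transcription, out of 18193 genes measured. Members were chosen by symbol. Each was read from the probe set with that single symbol in the platform annotation and the highest mean log2 value over the 12 arrays. All 40 had a probe set.

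RNA of 6 normal lungs and of 6 tumours that arose spontaneously in the lung was read on 1 Affymetrix array per sample. All samples came from untreated mice aged 2 years in a long-term bioassay. B6C3F1 mice are first-generation hybrids of C57BL/6 females and C3H males. The labels name no transgene and no agent for either group. Nothing in the labels says that each sample is its own mouse. The p-values therefore refer to the variation among these samples, which may be technical. The labels used here also name neither the sex of the mice nor the site in the lung.

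In rodents, cardiomyocytes cover the pulmonary veins well into the lung, so whole lung holds transcripts that are otherwise known from the heart. These cells contract by the sliding of myosin thick filaments along actin thin filaments, switched by calcium through the troponin complex. Atrial and venous cardiomyocytes share myosin light chains that differ from those of the ventricle, and they carry sarcolipin on the calcium pump of the sarcoplasmic reticulum.

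Regulatory sequence just upstream of several members is shown first, as a description only. RefSeq promoter windows (GRCm38.p6, 250 bases before to 50 after an annotated start) were held for 36 of the 40 members, in 45 windows. Gata4, Sln, Tcap and Trdn had none. A CArG box, the binding sequence of serum response factor, was found in 5 of the 45 windows, from 4 genes, and in 1.63% of all 32851 windows. A MEF2 site, bound by myocyte enhancer factors, was found in 4 windows and in 3.19% of all. Both strands were searched and no match overlapped a match of another kind. The stretches around the 8 sites follow on the strand of the gene, with the match in capitals.
Actc1 CArG box: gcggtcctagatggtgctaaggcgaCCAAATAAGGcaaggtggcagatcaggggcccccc
Myl7 CArG box: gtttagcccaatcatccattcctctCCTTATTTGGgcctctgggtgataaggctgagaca
Myl3 CArG box: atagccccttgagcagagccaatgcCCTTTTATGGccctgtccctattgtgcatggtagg
Ldb3 CArG box: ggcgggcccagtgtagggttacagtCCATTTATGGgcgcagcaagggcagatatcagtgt
Ttn MEF2 site: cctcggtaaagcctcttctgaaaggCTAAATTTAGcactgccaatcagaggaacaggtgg
Mybpc3 MEF2 site: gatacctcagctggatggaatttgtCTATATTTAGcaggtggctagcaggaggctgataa
Myoz2 MEF2 site: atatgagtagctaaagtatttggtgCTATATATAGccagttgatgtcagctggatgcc
Casq2 MEF2 site: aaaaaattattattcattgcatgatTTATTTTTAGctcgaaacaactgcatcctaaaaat

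Counted from the annotated start as position 0, these matches began between position -166 in Ttn and -33 in Myoz2. The stretches lie at chr2:114052888-114052947 (minus strand) for Actc1, chr11:5898809-5898868 (minus) for Myl7, chr9:110763568-110763627 (plus) for Myl3 and chr14:34588682-34588741 (minus) for Ldb3. The others are at chr2:76982679-76982738 (minus) for Ttn, chr2:91118029-91118088 (plus) for Mybpc3, chr3:123034988-123035045 (minus) for Myoz2 and chr3:102086321-102086380 (plus) for Casq2. Of the 36 members with a window 27 were lower in tumours in the arrays described next, among them all 8 with such a match. Over all genes 17.4% were lower. Most members with a window fell, so the 8 add little, and the share that fell among all genes with such a match was not taken. Whether the sites bear on the fall was not tested. Of the commoner motifs, TATAAA was in 6 of 45 member windows (13.3%) against 13.6%, CATTCC in 11 (24.4%) against 14.7%, and a GATA site (AGATAA or AGATAG, as well as TGATAA or TGATAG) in 17 (37.8%) against 29.8%. These are matches of letters only, and several windows belong to the same gene.

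The cardiac programme of the lung was largely lower in spontaneous tumours. Of the 40 members, 30 fell and 0 rose (limma, adjusted p), where 17.4% of all genes fell and 12.1% rose. At an unadjusted p under 0.05, 32 members were lower and 0 higher, against 23.3% and 17.1% of all genes, and limma with array weights called 1 higher. The members' median difference was -2.23 on the log2(signal + 16) scale, tumour minus normal lung, against -0.08 over all genes. In 29 members every tumour lay below every normal lung, as was so for 11.7% of all genes. The members share their source tissue and are not independent of each other. In bulk tissue, fewer cardiac muscle cells and less RNA in each cell cannot be told apart. Later differences use that log2 scale and carry ± 1 standard error (6 arrays in each group). Adjusted p-values were computed by limma and corrected by Benjamini-Hochberg over all probe sets.

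**Figure D1:**
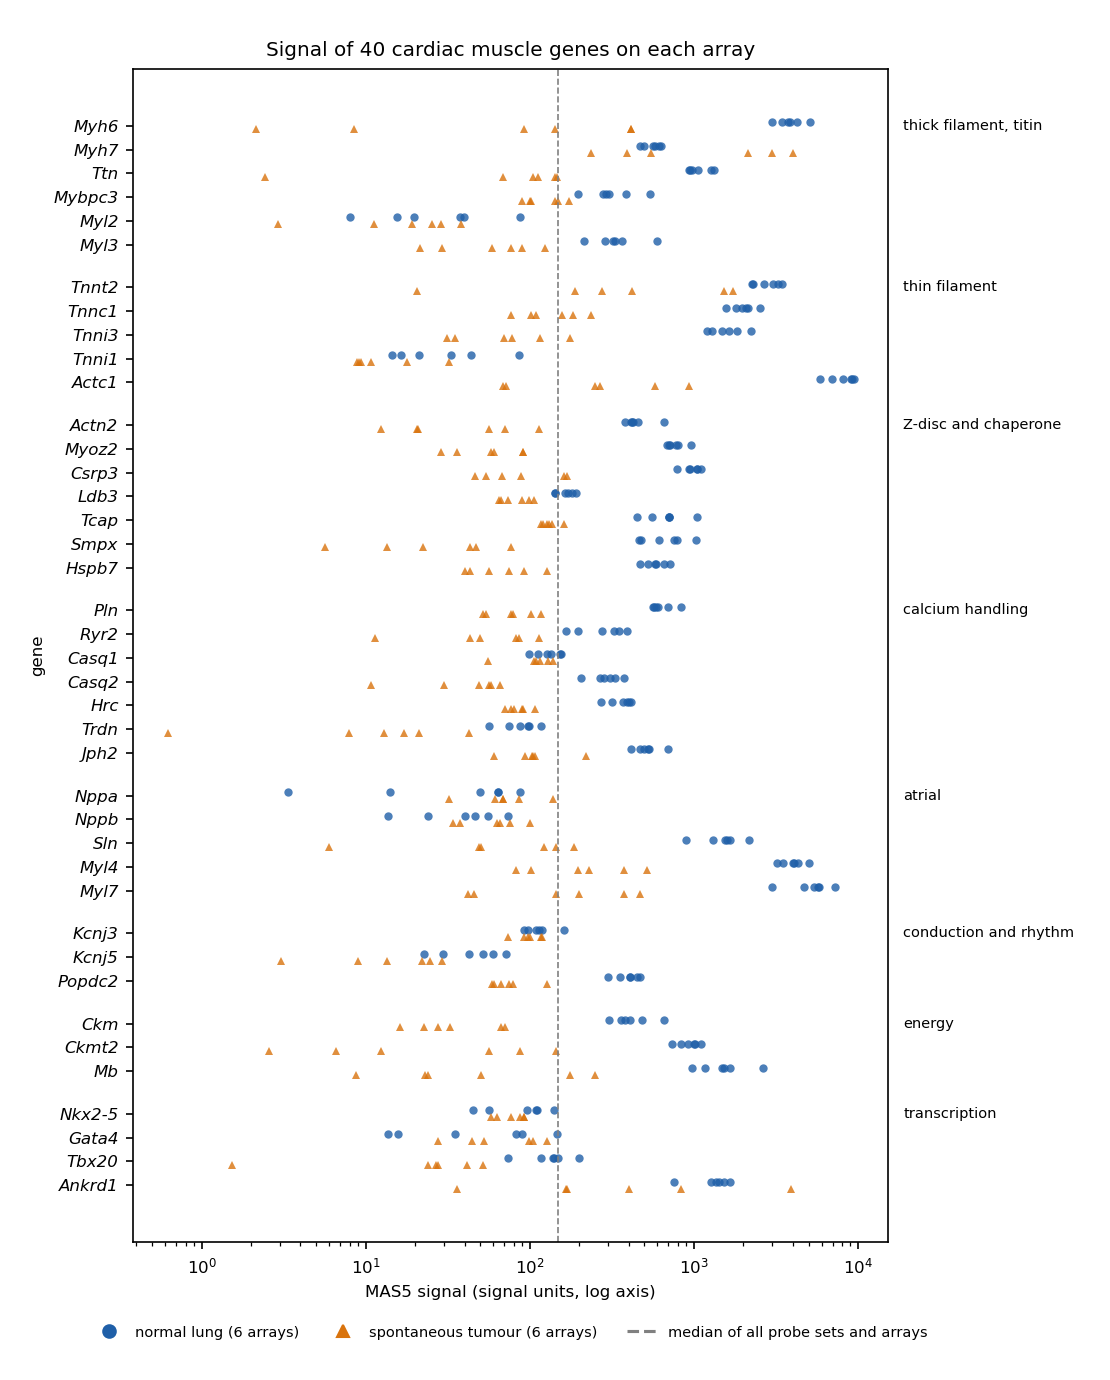
Signal of each of the 40 members on every array, on a log axis, with circles for 6 normal lungs and triangles for 6 tumours; the dashed line is the median of all probe sets and arrays, 148.8 signal units. Most members form a tight group of normal lungs well to the right of the tumours, and members such as Nppa, Myl2 and Nkx2-5 lie left of the line in both groups.

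The defining markers of heart muscle were checked first in normal lung. Of 8 fixed markers, 6 (Myh6, Tnnt2, Tnni3, Actc1, Myl7 and Ryr2) had a normal-lung mean above the median of all probe sets, 148.8 signal units. Nppa and Nkx2-5 did not. Of all 18193 genes, 12065 were above that median in the brighter of the groups, and a count over normal lungs alone is not given. The count of 6 of 8 therefore does not set these markers apart from other genes. Myl2, the light chain of the ventricle, was at 8.04 to 87.4 in normal lungs, and Irx4, a ventricular transcription factor, at 5.43 to 52.4. Myl3, also a ventricular light chain, was at 215 to 593 there, and the atrial light chains Myl4 and Myl7 were at 3190 to 5033 and 3012 to 7239. Levels of different probe sets cannot be compared. Sftpc, the surfactant protein of alveolar type II cells, did not drop under 34357 in any normal lung or under 31265 in any tumour.

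Counts by role, here and below, stand against 17.4% of all genes that fell and 11.7% that were lower without overlap. Of 6 thick filament and titin genes 4 fell, and Myh7 and Myl2 did not pass. Myh6, the fast cardiac myosin heavy chain, had a median signal of 3782 in normal lungs (2985 to 5113) and of 118 in tumours (2.15 to 416). The groups did not overlap, and tumours 3 and 6 were lowest. The difference was -5.18 ± 0.67 (adjusted p = 4.49e-05). A second, dimmer Myh6 probe set, at 83.9 to 189 in normal lungs and 12.1 to 28.0 in tumours, fell by less (-2.14 ± 0.24), and with an offset of 64 the first gave -4.43. Ttn, the giant spring of the sarcomere, had a median of 1017 (935 to 1325) in normal lungs and 108 (2.42 to 146) in tumours (-3.56 ± 0.42, adjusted p = 1.94e-05). Its second-brightest probe set of 6 fell likewise (-3.68 ± 0.32).

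Mybpc3, the cardiac myosin-binding protein C, fell from a median of 296 (range 196 to 539) to 122 (89.4 to 173). Its difference was -1.26 ± 0.24 (adjusted p = 0.00103), and the groups still did not overlap. Myl3, an essential light chain shared by ventricle and slow muscle, fell from a median of 324 (215 to 593) to 67.7 (21.5 to 123), a difference of -2.24 ± 0.33 (adjusted p = 1.29e-04). Myl2 did not pass (-0.37 ± 0.36, adjusted p = 0.518), and its signals were dim in both groups.

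Myh7, the slow cardiac myosin heavy chain, did not move one way. Normal lungs lay between 469 and 631. Tumours 1, 3 and 4 were at 2142, 3997 and 3004, above every normal lung, while tumours 2 and 6 were at 392 and 236, below every normal lung, and tumour 5 was at 551. Across all arrays the difference was 0.91 ± 0.57 (adjusted p = 0.289). With array weights, which give some arrays less influence, limma called it higher (1.39 ± 0.48, adjusted p = 0.0437).

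Myh6 and Myh7 are neighbours on chromosome 14 and close in sequence. In tumours 1, 3 and 4, with Myh7 at 2142, 3997 and 3004, the Myh6 signal was at 416, 8.535 and 416. In normal lungs, Myh7 at 469 to 631 stood beside Myh6 at 2985 to 5113. Myh7 has 1 probe set here, and whether it also reads Myh6 was not tested.

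Each of these myosin genes carries a microRNA in an intron, and the pair shares its seed. The mature sequences from RefSeq are shown with the seed, bases 2 to 8, in capitals. They match at 19 of 22 bases.
mmu-miR-208a-3p in Myh6: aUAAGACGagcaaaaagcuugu
mmu-miR-208b-3p in Myh7: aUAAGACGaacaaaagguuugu

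The array did not read the mature forms, so no level is given for either. They lie at chr14:54949072-54949093 and chr14:54975710-54975731 on the minus strand of GRCm38.p6. The 250 bases upstream of the Myh6 start and of the more distal Myh7 start are shown because Myh6 fell and Myh7 did not pass, with matches to the searched motifs in capitals. Both hold CATTCC on the reverse strand (GGAATG), at position -206 in Myh6 and -201 in Myh7, and Myh6 also holds a GATA site (CTATCT, the reverse of AGATAG) at -235. The Myh7 position depends on the start chosen. The 250 bases upstream of the other annotated Myh7 start, chr14:54994550-54994799, held no match.
Myh6, chr14:54966608-54966857, minus strand: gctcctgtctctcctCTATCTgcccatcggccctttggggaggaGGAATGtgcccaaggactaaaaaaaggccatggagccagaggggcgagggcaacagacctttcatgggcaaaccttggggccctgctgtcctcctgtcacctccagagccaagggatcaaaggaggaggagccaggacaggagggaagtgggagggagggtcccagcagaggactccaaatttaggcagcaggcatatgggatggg
Myh7, chr14:54994627-54994876, minus strand: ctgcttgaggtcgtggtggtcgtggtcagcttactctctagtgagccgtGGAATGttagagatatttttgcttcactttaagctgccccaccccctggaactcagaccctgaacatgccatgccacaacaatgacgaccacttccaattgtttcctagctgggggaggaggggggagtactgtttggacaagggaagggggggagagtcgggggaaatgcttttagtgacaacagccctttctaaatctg

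Of 5 thin filament genes 4 fell, and Tnni1 did not pass. Actc1, the cardiac actin, was at 5894 to 9419 in normal lungs (median 8608.5) and at 68.7 to 935 in tumours (median 259). Tumour 4 was highest and tumours 3 and 6 were lowest, with no overlap of the groups (-4.94 ± 0.49, adjusted p = 3.80e-06). Tnnc1, the calcium-binding troponin C of heart and slow muscle, fell from a median of 2023 (1569 to 2515) to 134 (76.9 to 235). The difference was -3.74 ± 0.22 (adjusted p = 7.58e-08). Tnni3, cardiac troponin I, fell from a median of 1556 (1203 to 2225) to 73.7 (31.4 to 175), a difference of -4.16 ± 0.30 (adjusted p = 2.93e-07).

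Tnni1, the troponin I of slow skeletal and fetal cardiac muscle, was dim at 14.4 to 86.3 in normal lungs and 8.89 to 32.0 in tumours (-0.66 ± 0.31, adjusted p = 0.144).

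Tnnt2, cardiac troponin T, fell unevenly. Normal lungs were at 2248 to 3455. Tumours 2 and 6 were at 1733 and 1531, and tumours 1, 3, 4 and 5 at 274, 20.4, 417 and 188. The difference was -2.93 ± 0.70 (adjusted p = 0.0064), and the second probe set of similar brightness gave -2.83 ± 0.66. With the signal of the Y-linked gene Eif2s3y as a covariate the call was lost (-2.05 ± 0.89, adjusted p = 0.155). Eif2s3y was at 740.5 or more in tumours 1, 2, 3 and 5 and at 27.4 or less on the other 8 arrays. This transcript was thus high in tumours only, and is partly confounded with the group in every comparison here.

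**Figure D2:**
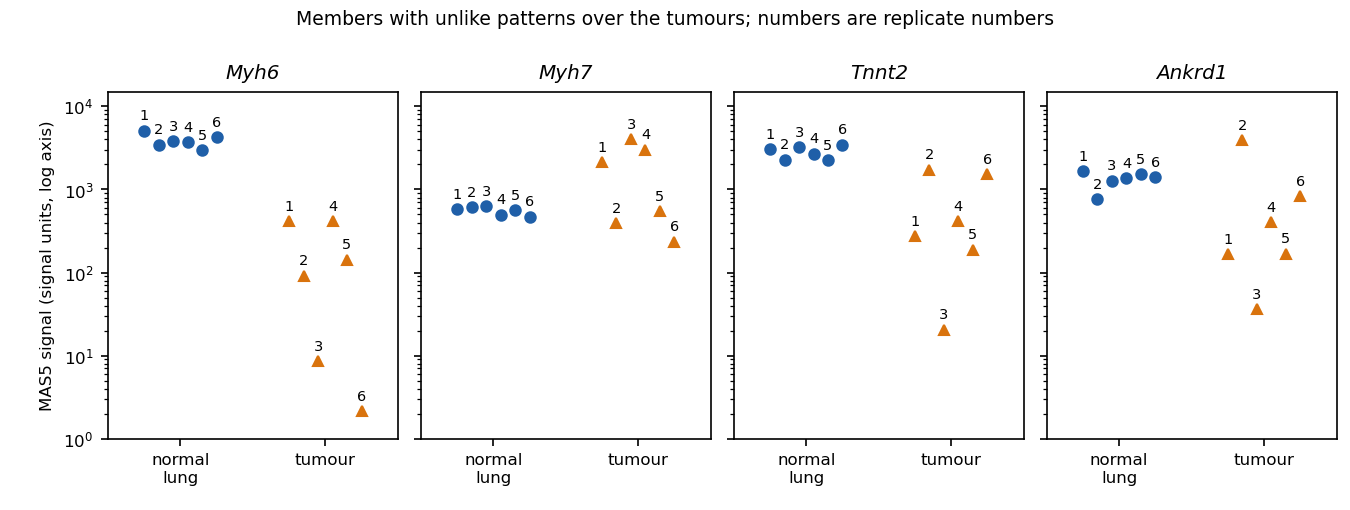
Signal on a log axis for Myh6, Myh7, Tnnt2 and Ankrd1, with each point numbered by its replicate (circles, 6 normal lungs; triangles, 6 tumours). Tumours 1, 3 and 4 stand above all normal lungs for Myh7, while tumours 2 and 6 are the highest of the tumours for Tnnt2 and Ankrd1.

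All 7 genes of the Z-disc and its chaperones fell, and none overlapped, against 17.4% and 11.7% of all genes. Smpx, a small costamere protein, fell (-3.91 ± 0.33) from a median of 686 (462 to 1032) to 32.7 (5.62 to 77.1). Myoz2, a calcineurin-binding Z-disc protein, had tight normal lungs at 683 to 956 and tumours at 28.9 to 90.9 (-3.42 ± 0.22, adjusted p = 1.43e-07). Csrp3, the muscle LIM protein, went from 789 to 1099.7 down to 46.1 to 168 (-3.25 ± 0.26). Actn2, the alpha-actinin that cross-links thin filaments, was at 382 to 659 and 12.5 to 114 in the groups (-3.07 ± 0.34).

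Hspb7, a small heat shock protein of heart muscle, was at 467 to 717 in normal lungs and 40.02 to 127 in tumours (-2.85 ± 0.23). Tcap, or telethonin, which binds titin at the Z-disc, was at 452 to 1042 and 117 to 162 (-2.22 ± 0.18). Adjusted p-values of these 6 were 1.04e-05 or less. Ldb3, a PDZ and LIM domain protein of the Z-disc, fell on its chosen probe set from a median of 168 (143 to 192) to 81.4 (65.2 to 107), or -0.88 ± 0.19 (adjusted p = 0.00334). Its 2 other probe sets fell by far more, at -3.32 ± 0.29 and -3.22 ± 0.38.

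Of 7 calcium handling genes 6 fell, by a median of -2.001 over the 7. Pln, phospholamban, the brake on the calcium pump, was at 565 to 837 in normal lungs and 51.7 to 118 in tumours (-2.81 ± 0.20, adjusted p = 2.25e-07). Ryr2, the calcium release channel of the heart, fell from a median of 301 (166 to 389) to 66.4 (11.4 to 114), a difference of -2.001 ± 0.35 (adjusted p = 5.97e-04). Jph2, which ties the reticulum to the cell membrane, fell from a median of 513 (415 to 691) to 104 (60.6 to 221), a difference of -2.11 ± 0.23 (adjusted p = 9.93e-06). Its second probe set, at 235 to 315 in normal lungs and 76.6 to 203 in tumours, fell by less (-0.90 ± 0.21, adjusted p = 0.0057). The Pln probe set with the highest mean signal on the linear scale gave -3.57 ± 0.40. Tumour 4 had the highest Jph2 and Pln signals of the tumours.

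Of the calcium store proteins, Casq2, cardiac calsequestrin, fell from a median of 295 (205 to 373) to 53.0 (10.8 to 65.7), with no overlap (-2.42 ± 0.28, adjusted p = 1.53e-05). Casq1, the skeletal muscle form, was at 98.7 to 155 and 55.6 to 139 (-0.25 ± 0.22, adjusted p = 0.472). Hrc, a calcium-binding protein of the reticulum, fell from a median of 379.6 (271 to 412) to 84.7 (70.5 to 108), or -1.88 ± 0.17. Trdn, triadin, which anchors calsequestrin, was dim even in normal lung at 56.2 to 117 and fell to 0.62 to 42.4 (-1.74 ± 0.30, adjusted p = 4.76e-04).

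Of 5 atrial members 3 fell. Myl7, the atrial regulatory light chain, was at 3012 to 7239 in normal lungs (median 5559) and 41.9 to 467 in tumours (median 172), a fall of -4.93 ± 0.46 (adjusted p = 2.40e-06). Myl4, the atrial essential light chain, was at 3190 to 5033 and 82.6 to 519 (-4.15 ± 0.34, adjusted p = 6.92e-07). Sln, sarcolipin, was at 892 to 2176 and 5.94 to 186 (-4.11 ± 0.43, adjusted p = 6.78e-06). None of the 3 overlapped, and tumour 4 was the highest tumour in each.

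The natriuretic peptides did not follow them. Nppa, the atrial peptide, was dim in both groups, at 3.35 to 87.4 in normal lungs and 32.1 to 138 in tumours (0.68 ± 0.41, adjusted p = 0.274). Nppb was at 13.6 to 74.1 and 34.2 to 99.6 (0.46 ± 0.31, adjusted p = 0.328). Each peptide was read by 1 probe set, and a dim probe set does not show that the RNA was absent. The genes are neighbours on chromosome 4.

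Conduction members were mostly dim. Popdc2, a cAMP-binding membrane protein of the heart that acts in pacemaking, was the bright member, at 301 to 472 in normal lungs and 59.2 to 128 in tumours (-2.16 ± 0.20, adjusted p = 1.93e-06). Kcnj5, a subunit of the acetylcholine-gated potassium channel, overlapped between groups at 22.6 to 71.8 and 3.05 to 29.3 (-0.93 ± 0.29, adjusted p = 0.0272). Dropping any of 5 single arrays (normal lungs 1, 2 and 3, tumours 1 and 5) ended its call, at an adjusted p of 0.0527 to 0.0621 (limma). Kcnj3, the partner subunit, did not pass on its chosen probe set (-0.18 ± 0.20, adjusted p = 0.593), which lay at 92.4 to 162 and 74.0 to 119. Another Kcnj3 probe set of like brightness in normal lung, at 45.3 to 131, was at 2.36 to 19.6 in tumours (-2.39 ± 0.28, adjusted p = 1.57e-05).

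All 3 energy genes fell steeply. Mb, myoglobin, the oxygen store of heart and oxidative muscle, was at 978 to 2654 in normal lungs (median 1500.3) and 8.72 to 251 in tumours (median 37.2), or -4.41 ± 0.50 (adjusted p = 1.40e-05). Ckmt2, the mitochondrial creatine kinase of sarcomeric muscle, was at 738 to 1104 and 2.57 to 144 (-4.26 ± 0.46, adjusted p = 7.63e-06). Ckm, the cytosolic muscle form, was at 305 to 660 and 16.2 to 70.7 (-3.07 ± 0.28, adjusted p = 1.88e-06). Normal lung 1 was the highest array for all 3, and tumours 1 and 4 were the highest tumours.

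Cardiac transcription factors gave a mixed picture. Tbx20, a T-box factor of cardiomyocytes, fell from a median of 139.9 (73.4 to 199) to 27.2 (1.54 to 52.0), with no overlap (-1.83 ± 0.33, adjusted p = 7.05e-04). Nkx2-5, the homeobox factor of early heart cells, was at 45.2 to 140.2 and 58.1 to 92.6 (-0.15 ± 0.26, adjusted p = 0.74). Gata4, a zinc finger factor of heart and gut, was at 13.7 to 146 and 27.5 to 127 (0.36 ± 0.45, adjusted p = 0.628). Both were dimmer than the median of all probe sets.

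Ankrd1, a stress-responsive ankyrin repeat protein of nucleus and sarcomere, varied widely among tumours. Normal lungs were at 762 to 1665. Tumour 2 was at 3898, above all normal lungs, tumour 6 at 829.8, within their range, and tumours 1, 3, 4 and 5 at 166, 35.9, 401 and 168. The difference did not pass (-1.85 ± 0.74, adjusted p = 0.086), and the second probe set gave the same picture (-1.86 ± 0.75). It was called lower with array weights (-2.25 ± 0.59, adjusted p = 0.00974) and when tumour 2 was left out as one of the single arrays (-2.53 ± 0.52, adjusted p = 0.00223).

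**Figure D3:**
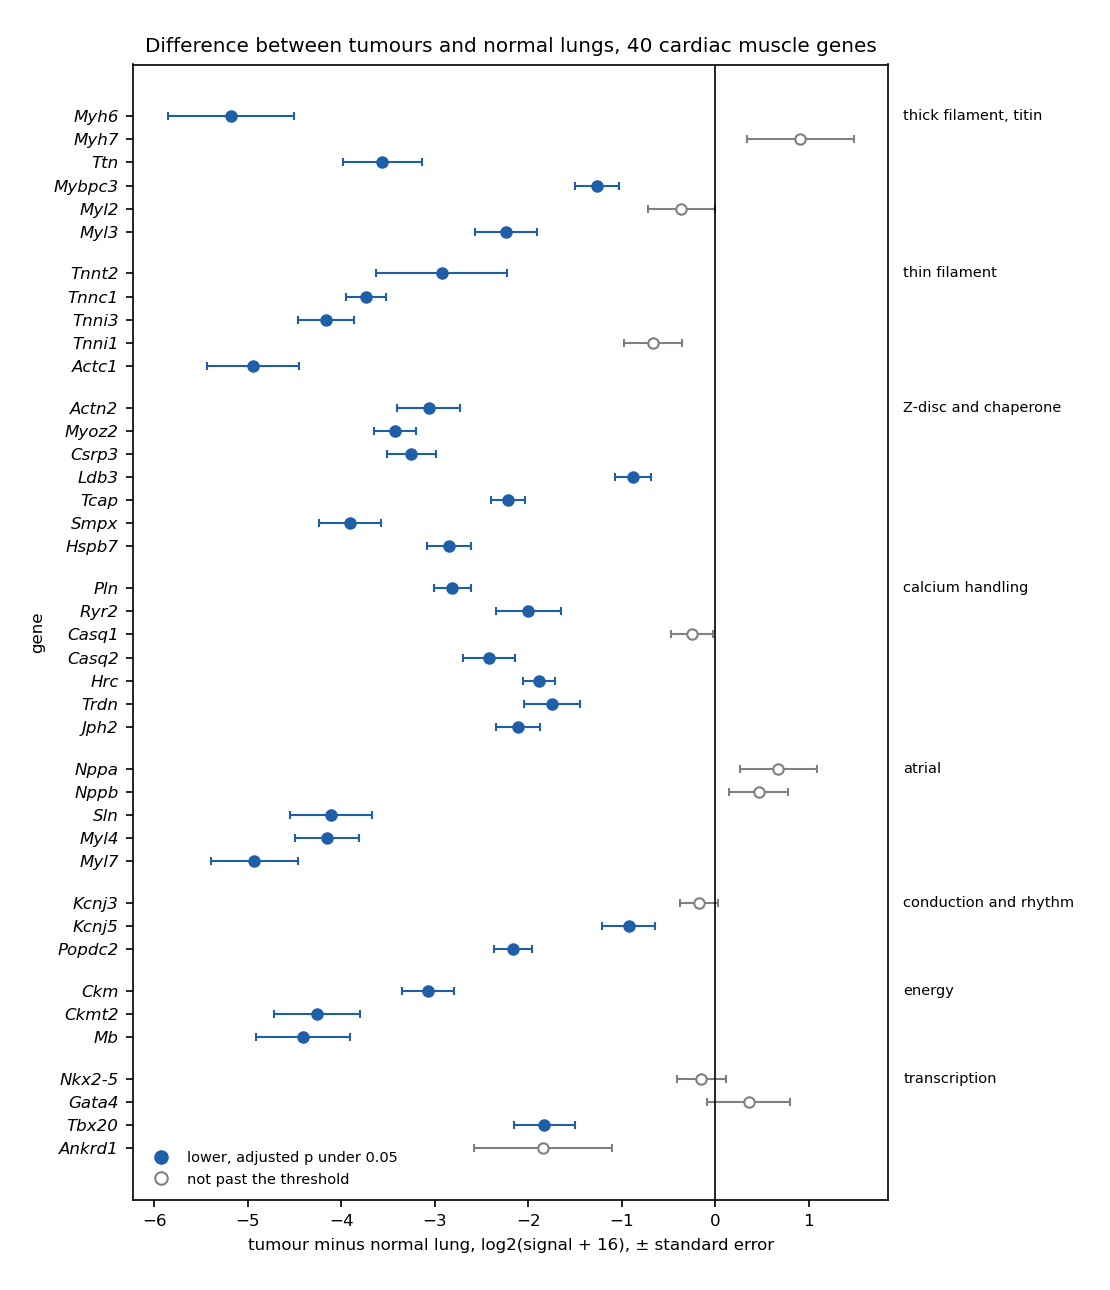
Difference between tumours and normal lungs for each member on the log2(signal + 16) scale, with bars for the standard error (n = 6 arrays per group); filled points passed an adjusted p of 0.05. The 30 filled points all lie below 0, from Ldb3 at -0.88 to Myh6 at -5.18, and Myh7, Nppa, Nppb and Gata4 are the only members with a difference above 0.

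Of the 40 members, 11 were no brighter than the median of all probe sets in either group, and 3 of these fell (Trdn, Kcnj5 and Tbx20). Among the other 29, those not called were Myh7 and Ankrd1. Brightness was taken from the brighter group, so a member high only in normal lung passed, which favours a fall among the 29. Of all genes 17.4% fell, and 25.3% with dim probe sets removed before the fit. The median SD of the members' log2 values was 0.29 among normal lungs and 0.61 among tumours, against 0.28 and 0.44 over all genes.

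Arrays differed in how much cardiac signal they held. Normal lung 1 was the highest normal lung for 22 of the 30 members that fell, with a median deviation of 0.34 log2 from the group mean. Normal lungs 2 and 5 were each the lowest for 9. The summed signal of all 40 members was 36240 to 55140 in normal lungs and 3908 to 9589 in tumours. This sum adds levels of different probe sets, and single genes that were not called weigh heavily in it. Myh7 gave 3997 of 6271 in tumour 3, and Ankrd1 gave 3898 of 8851 in tumour 2. Among tumours, tumour 4 was highest for 17 of the 30 and tumour 6 lowest for 13.

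Shares of the normal-lung signal left in tumours were taken for the 30 members that fell. These were picked by that call on the same arrays, so small shares follow from the choice. Members not called, among them Myh7 and Ankrd1, are left out. Over the 30 members, the median share of the normal-lung mean was 16.2% in tumour 4 and 15% in tumour 1. It was 6.45% to 7.70% in tumours 2, 3, 5 and 6. Many tumour signals behind these shares were below the median of all probe sets, where a share is not a measured remainder. Tumours 1 and 4 also had the highest endothelial list means of the tumours, 9.81 and 10.03, where the other 4 lay between 8.70 and 9.45. Smooth muscle list means did not share that order, with tumour 4 at 8.40, tumour 2 at 8.34 and tumour 1 at 8.01. The part of vessels in these shares was not tested.

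Other lists of muscle and vessel genes were set beside the members, where 17.4% of all genes fell. All 10 smooth muscle genes fell, with a median of -2.23, among them Myh11 (-3.86 ± 0.22), the smooth muscle myosin, Cnn1 (-3.80 ± 0.43), Synpo2 (-2.51 ± 0.25) and Tagln (-2.45 ± 0.25). All 14 endothelial genes fell, with a median of -2.97, including Ramp2 (-3.82 ± 0.23), Acvrl1 (-3.63 ± 0.20), Eng (-2.85 ± 0.16) and Gpihbp1 (-2.63 ± 0.13). The difference between these lists and the members was not tested. Of 6 mesothelial and epicardial genes 4 fell, with Tcf21 at -4.52 ± 0.43, Upk3b at -3.95 ± 0.63, Upk1b at -3.46 ± 0.53 and Lrrn4 at -1.997 ± 0.38. Wt1 (-0.20 ± 0.39) and Msln (-0.30 ± 1.32) did not pass. Msln was at 4057 and 12120 in tumours 2 and 6, above all normal lungs (122 to 591). In the remaining tumours it was at 97.7 or less, below all normal lungs.

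Skeletal muscle genes were mostly dim. Of 21 genes, 19 were no brighter than the median of all probe sets in either group. The summed signal of the list was 1015 to 1555 in normal lungs and 958 to 1239 in tumours. In this list of 21, 3 genes fell, Tnnt1 (-1.91 ± 0.46), Myl1 (-1.72 ± 0.40) and Atp2a1 (-1.49 ± 0.36), and Tnni2 rose (1.49 ± 0.36). Over all genes 17.4% fell and 12.1% rose, so neither share of this list was above that of all genes. With the mean of its probe sets Tnni2 did not pass (0.62 ± 0.29, adjusted p = 0.131), and with Eif2s3y as a covariate none of the 3 was called lower. Myl1 was at 52.0 to 168 in normal lungs. Actn3, Myh1, Myh2 and Myh4, of fast fibres, had medians of 63.6, 28.1, 14.3 and 26.0 there.

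**Figure D4:**
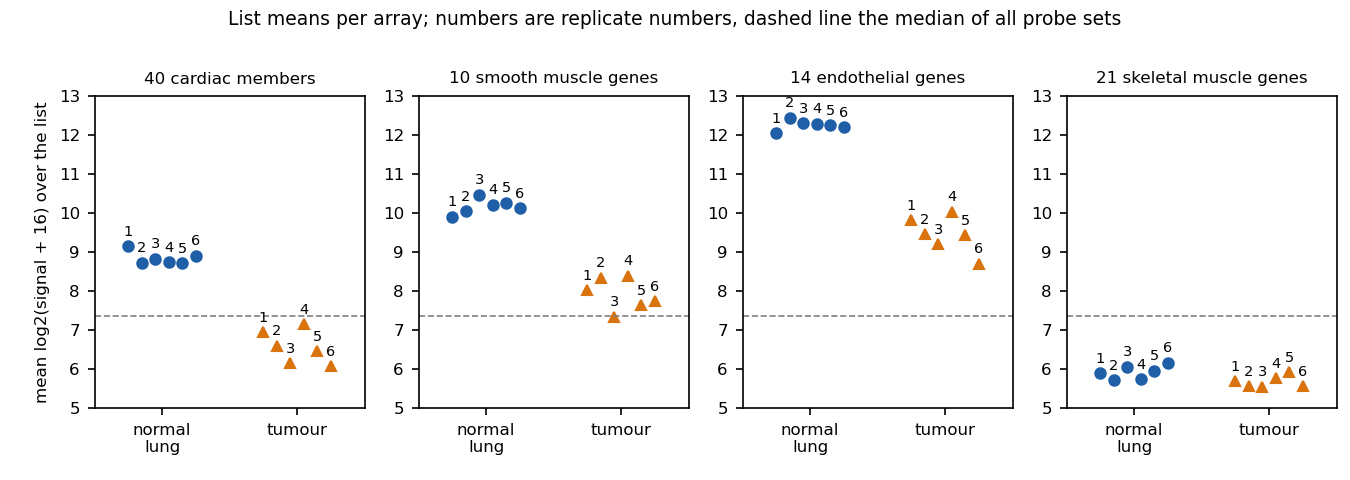
Mean log2(signal + 16) per array over the 40 members, 10 smooth muscle, 14 endothelial and 21 skeletal muscle genes, with points numbered by replicate (circles, normal lungs; triangles, tumours) and a dashed line at the median of all probe sets. Members, smooth muscle and endothelial lists separate the groups on every array, with members at 8.71 to 9.15 in normal lungs and 6.07 to 7.15 in tumours, while skeletal muscle means lie at 5.54 to 6.17 on all arrays.

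Cardiac genes outside the set were listed too. Of 76 listed genes 64 were measured, and 34 fell and 1 rose, where 17.4% of all genes fell and 12.1% rose. The median over the 64 was -0.95. Contractile genes fell in 11 of 18 cases, with Myom2 (-3.24 ± 0.32), a protein of the M-band, Cmya5 (-2.88 ± 0.26), Tmod1 (-2.44 ± 0.23), which caps thin filaments, and Nebl (-2.17 ± 0.15). Metabolic genes fell in 6 of 9, with Pygm (-3.17 ± 0.42), the muscle glycogen phosphorylase, Fabp3 (-3.13 ± 0.26), a fatty acid carrier, Pgam2 (-2.86 ± 0.25) and Cox8b (-2.62 ± 0.26).

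Membrane and channel genes fell in 9 of 20 cases and rose in 1, against 17.4% and 12.1% of all genes. Popdc3 (-2.87 ± 0.25), a relative of Popdc2, Srl (-2.15 ± 0.24) and the connexin Gjc1 (-1.70 ± 0.18) fell. Gja1, connexin 43, which also joins epithelial cells, rose from a median of 3053 (2541 to 3700.5) to 8616 (5687 to 11621), a difference of 1.41 ± 0.18 (adjusted p = 3.20e-05). Transcription and turnover genes fell in 8 of 17, with Tbx3 (-3.53 ± 0.22), a T-box factor of the conduction system and of lung mesenchyme, Trim63 (-2.11 ± 0.31), Rbm24 (-2.06 ± 0.29) and Mef2a (-1.01 ± 0.11). Many of these genes are also expressed outside heart muscle.

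**Figure D5:**
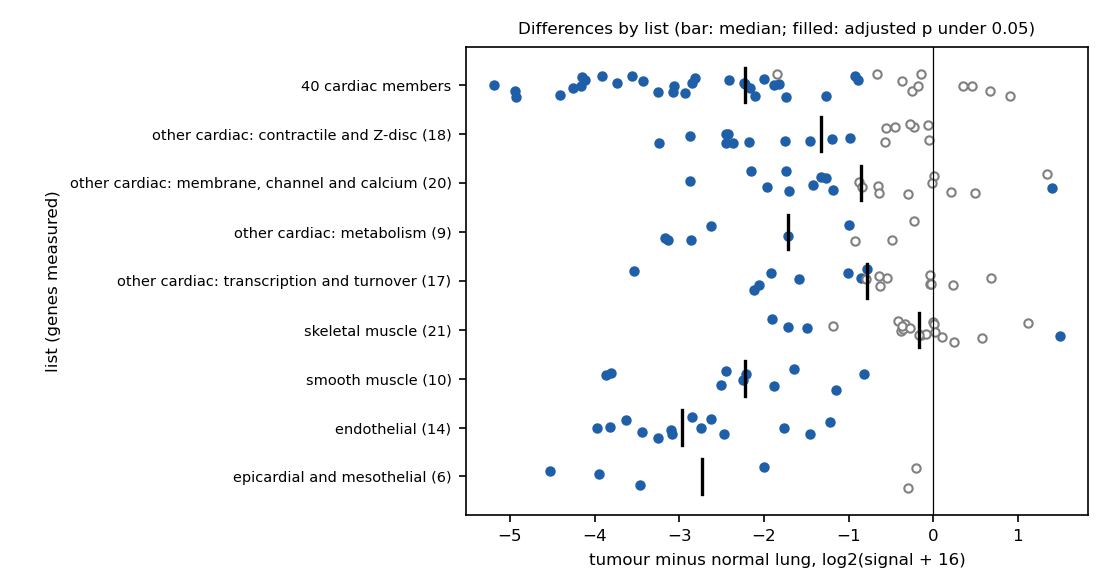
Differences on the log2(signal + 16) scale for every measured gene of each list, with a bar at the list's median and filled points for an adjusted p under 0.05. The members, smooth muscle and endothelial genes centre at -2.23, -2.23 and -2.97, and skeletal muscle genes centre at -0.17.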

How the data were processed

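The authors deposited 1 linear intensity for each probe set and array, computed with MAS5 per the submitters' processing notes; version and settings are not given in the sources used here. The 2% trimmed mean was 497.2 to 498 on all arrays, so this scaling was kept. Such values shrink to noise at low signal, where detection calls were not used here. Of 45101 probe sets, 64 controls were left out and 45037 tested. Symbols came from GEO's platform annotation, with 34945 probe sets having 1 symbol, and were checked through gene identifiers against RefSeq tables (GRCm38.p6). Median signal per array was 126 to 164; the number of arrays limits the precision.

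Values were transformed as log2(signal + 16), which understates changes of dim genes, and tested by limma 3.58.1 under R 4.3.3 (functions lmFit and eBayes, intensity trend on, 6 against 6 arrays, no covariate, two-sided, Benjamini-Hochberg over all probe sets, threshold 0.05). The fit was tested on simulated data. Sequences were searched with Python 3.11.15.

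The members and lists were chosen with earlier results of these data known, and list counts are descriptions. Every member is given. Of other lists, up to 4 genes with the smallest adjusted p and any that rose are named; other named genes, the motifs and the splits by tumours 1 and 4 or 2 and 6 were chosen after values were seen. The fit was repeated with other offsets, after quantile normalization or median centring, with dim probe sets removed, without the trend, with array weights, the replicate block, other gene values or Eif2s3y as a covariate, and without single arrays or pairs.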

Additional observations from a re-analysis of the deposited data

Results flagged for a closer look

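Among 80 groups of 6 arrays, 5 members had a single array far from the other 5 of its group. Chance gives about 1 in 20, so this count is near the chance rate, and the cases are listed as values only. Ttn was at 2.42 in tumour 6, with the next tumour at 69.1. Casq1 was at 55.6 in tumour 6, against 105 in the next. Actn2 was at 659 in normal lung 1, above 458 in the next normal lung. Popdc2 was at 128 in tumour 4, above 79.1 in the next tumour. Ankrd1 was at 762 in normal lung 2, below 1279 in the next normal lung.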

How the results depend on the processing

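Under 27 alternatives, between 27 and 31 members were lower in tumours, against 30; leaving out each array in turn gave 29 to 31. The lowest count, with a filter on dim probe sets, came from 29 members tested. All of 26 members stayed lower under each alternative; the others of the 30 were Kcnj5 and Tnnt2, and Trdn and Tbx20, which were called wherever they were tested. With the replicate block 30 members were lower, the same genes, and no member's call changed; arrays of the same number did not deviate together (correlations -0.0178 to 0.0217), so the numbers were not taken as pairs. The count of members higher in tumours was 1 with array weights and 1 without tumours 2 and 6, Myh7 both times, and 0 under the rest; tumours 2 and 6 were picked as the lowest for Myh7 and the highest for Tnnt2 and Ankrd1, so that count supports nothing. Of 1069 member values under an alternative, 1046 kept direction and side of the threshold, 11 lost the call, 7 gained it and 5 changed sign without a call on either side. These 5 were Kcnj3 at 0.0195 and Nkx2-5 at 0.0624 after quantile normalization, Kcnj3 at 0.0133 and Nkx2-5 at 0.0388 after median centring, and Gata4 at -0.0215 without normal lungs 2 and 4. Median centring moved the median difference of all genes from -0.08 to 0.11, and then 3480 genes were higher in tumours against 2201; with Eif2s3y as a covariate 1307 were. Skeletal muscle genes lower in tumours were 1 with the filter on dim probe sets and 0 with Eif2s3y as a covariate, against 3. The cause was not tested. Signal near the bottom of the scale limits what Nppa, Nppb, Myl2, Tnni1, Nkx2-5 and Gata4 can show.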

Other observations

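Cardiac genes outside the set also differed between tumours, and these were picked after their values were seen. Fhl2, a LIM protein of heart muscle, was at 1159 and 917.8 in tumours 2 and 6, while the remaining tumours spanned 120.5 to 201 and normal lungs 170 to 431. Kcnq1, a potassium channel subunit of heart and epithelia, was at 1789 and 1601 in tumours 2 and 6, while the remaining tumours spanned 270.4 to 419 and normal lungs 462 to 710.3. These are the tumours with the highest Tnnt2 and Ankrd1 signals. Cox6a2, a muscle subunit of cytochrome oxidase, was lowest in the same tumours, at 135 and 214, and spanned 868 to 2405 over the rest. Corin, the protease that processes the atrial peptide, was at 1370.4 in tumour 1, 735 in tumour 3 and 323 in tumour 5. Tumours 2, 4 and 6 were at 1.71, 32.7 and 15.15, below all normal lungs (43.7 to 164), so Corin split both ways. Neither Fhl2 (adjusted p = 0.947), Kcnq1 (adjusted p = 0.987), Cox6a2 (adjusted p = 0.276) nor Corin (adjusted p = 0.758) passed in limma between the groups.

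Probe sets of a member did not always give the same result. Of 6 Ttn probe sets 4 were lower in tumours, and of 6 Trdn probe sets 2 were. Both further Myl3 probe sets fell by more than the chosen one (-3.31 ± 0.40 and -3.14 ± 0.39). Mb, Sln and Myl4 each had a second probe set that was dim in both groups, at 91.4 or less on every array, and did not pass. Ryr2 (-0.80 ± 0.30), Ckm (-0.40 ± 0.37), Tnnt2 (-0.64 ± 0.64), Tbx20 (-0.16 ± 0.38) and Kcnj5 (-0.65 ± 0.39) each also had a probe set that did not pass. Their group means on these probe sets were below the median of all probe sets.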
